A study of Mus musculus with 8 samples.

Results

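Rag1, Rag2 and Dntt are the 3 lymphoid genes whose products cut and extend antigen receptor gene ends, and their surroundings were described from ATAC-seq peak lists of mouse thymocytes. The regions were chosen by position alone, as every merged peak region that overlapped a member gene or the 120 kb on either side of it. Rag1 and Rag2 lie side by side on chromosome 2 and were taken as 1 locus. That gave 51 regions at the Rag1-Rag2 locus and 40 at the Dntt locus on chromosome 19, together 91 of the 180321 merged regions of the series.

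ATAC-seq marks open chromatin by inserting sequencing adapters where a transposase can reach the DNA. DN3 thymocytes, the early T-cell precursors that rearrange the T-cell receptor beta gene, were profiled in C57BL/6 mice in 2 groups of 2 libraries. In the mutant group both alleles of N-Me, a Notch-responsive enhancer far downstream of Myc, were altered at GATA sites 1 and 2, and in the wild-type group N-Me was intact. Age, sorting and whether the replicates were separate animals are not given in the labels, so each p-value reflects variation among these 4 libraries alone, which may be technical. The 4 leukaemia samples of the series were not analysed here.

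RAG1 and RAG2 form the recombinase that binds and cuts the recombination signals beside V, D and J gene segments. Terminal deoxynucleotidyl transferase, the product of Dntt, then adds bases without a template to the cut ends before they are joined, which diversifies the receptor. The Rag genes are transcribed towards each other, and elements described upstream of Rag2 include an antisilencer element used in T-lineage cells and the enhancers Erag and D3, described in B-lineage cells.

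Rag1 (GRCm38, chromosome 2, 101638252 to 101649532) is on the minus strand, and Rag2 (chromosome 2, 101624712 to 101632528) is on the plus strand. Dntt (chromosome 19, 41029275 to 41059525) is on the plus strand. The 250 bases before each start site are shown because all 250 bases lay inside called peaks in 4 of 4 libraries for each gene. The sequences are from RefSeq (GRCm38.p6), written 5′ to 3′ on the strand of the gene and ending at the base before the start, at chr2:101649533-101649782 (minus) for Rag1, chr2:101624462-101624711 (plus) for Rag2 and chr19:41029025-41029274 (plus) for Dntt. Capitals mark matches to any of the motifs searched on both strands, which were AGATAA for GATA factors with its variant TGATAA, the Ets motif AGGAAG, the E-box CAGGTG and the palindromic E-box CAGCTG, the Runx motif TGTGGT, the Fox motif TGTTTAC, the Ikaros core TGGGA and the TATA box letters TATAAA.
Rag1: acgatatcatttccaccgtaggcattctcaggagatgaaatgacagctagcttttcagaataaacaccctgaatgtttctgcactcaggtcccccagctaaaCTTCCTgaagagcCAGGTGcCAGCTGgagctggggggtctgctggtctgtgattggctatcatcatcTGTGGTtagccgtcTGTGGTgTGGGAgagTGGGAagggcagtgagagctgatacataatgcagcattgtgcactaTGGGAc
Rag2: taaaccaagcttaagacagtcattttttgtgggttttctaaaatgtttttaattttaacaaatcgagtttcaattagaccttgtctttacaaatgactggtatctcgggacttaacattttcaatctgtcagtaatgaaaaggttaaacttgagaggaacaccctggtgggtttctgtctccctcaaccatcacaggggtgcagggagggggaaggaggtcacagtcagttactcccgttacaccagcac
Dntt: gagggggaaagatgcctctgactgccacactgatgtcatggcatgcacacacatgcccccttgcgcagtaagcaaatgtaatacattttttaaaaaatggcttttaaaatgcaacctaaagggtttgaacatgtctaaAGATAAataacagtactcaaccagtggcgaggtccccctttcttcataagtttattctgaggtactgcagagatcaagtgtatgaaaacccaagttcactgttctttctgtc

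The Rag1 window held 8 matches. CAGGTG lay at −135 to −130 from the start, and CAGCTG, which reads the same on both strands, lay at −128 to −123. AGGAAG was present on the opposite strand at −148 to −143, printed as its complement. TGTGGT occurred at −81 to −76 and at −67 to −62, and TGGGA occurred at −60 to −56, −52 to −48 and −6 to −2. The Dntt window held a single match, AGATAA at −112 to −107, and the Rag2 window held none of these letters. Among the same 250-base windows of 32851 promoters, AGATAA was present in 9.99%, TGATAA in 7.94%, CAGGTG in 17.2%, CAGCTG in 13.0%, AGGAAG in 29.5%, TGTGGT in 14.0%, TGTTTAC in 3.17%, TGGGA in 55.1% and TATAAA in 12.4%. A match is a description of the letters and not a bound site. GC content was 50.8% for Rag1, 41.2% for Rag2 and 41.6% for Dntt, beside a median of 52.4% over all promoters.

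Over the chromosomes used there were 121022 and 119023 peaks in mutant (72.3 and 69.3 Mb covered) and 169255 and 156372 in wild type (72.1 and 70.8 Mb covered). No peak was shorter than 73 and 87 bp in mutant or 64 and 65 bp in wild type, and the smallest gap left between peaks was 293 and 349 bp in mutant and 257 and 261 bp in wild type. Each peak carries the authors' fold enrichment over local background and a −log10 q, and a higher value of either places a peak higher within its own list. Where a region held several peaks of a library, its highest values were used. Over the 102231 regions called in 4 of 4 libraries, the median fold was 3.55 and 3.71 in the mutant lists and 4.59 and 4.21 in the wild-type lists. A fold is therefore read beside its percentile within the list where that is given. The depth of the libraries is unknown without read counts, a missing peak means not detected in that library, and fewer cells with an open site cannot be told apart from less opening in each cell. A peak lay within 1 kb of an annotated end of all 8 T-cell precursor marker genes in 4 of 4 libraries, and the same held for all 5 later thymocyte markers (Cd4, Cd8a, Cd8b1, Ccr7 and S1pr1). B-cell markers had 4 and 4 of 6 ends called in mutant and 4 and 5 of 6 in wild type, myeloid markers 2 and 2 of 5 in mutant and 4 and 4 of 5 in wild type, and erythroid markers 2 of 4 in every library. Ms4a1, Elane, Gata1 and Hba-a1 were called in no library, and Csf1r and Mpo were called in wild type only. Over all protein-coding genes an end was called for 68.3% and 68.5% in mutant and 71.9% and 71.0% in wild type. In 4 of 4 libraries it was called for 67.1%. The share of all genes called in wild type only was not counted. The part of other cell types in the results was not tested.

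The starts of Rag1, Rag2 and Dntt were open in every library of both genotypes. The fold at the Rag1 start (chromosome 2, 101649133 to 101650254) was 4.46 and 4.60 in mutant libraries and 5.26 and 5.09 in wild-type libraries, and its −log10 q was 79.82 and 53.55 in mutant and 67.27 and 56.25 in wild type. That fold stood at the 72.3 and 71.6 percentiles of the mutant lists and the 75.9 and 76.8 percentiles of the wild-type lists. The Rag1 start was in the upper part of every list, and the genotypes overlapped in −log10 q but not in fold. The median fold over all shared regions was lower in mutant too, and how often folds do not overlap among them was not counted. On the upstream side of the Rag1 start the outline reached further in both mutant libraries than in either wild-type library. The closest pair differed by 373 bp. In the first mutant library that stretch was a separate small peak across a gap of 317 bp, and in the second it was joined to the start peak.

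At the Rag2 start (chromosome 2, 101623198 to 101625547), which lies within Iftap on the opposite strand, the fold was 2.92 and 2.69 in mutant and 2.86 and 2.92 in wild type. Its percentiles were 43.1 and 30.8 in mutant and 38.7 and 41.2 in wild type, and the genotypes overlapped. At the Dntt start (chromosome 19, 41028871 to 41029617) the fold was 2.05 and 2.17 in mutant and 2.24 and 2.52 in wild type. The Dntt start stood lowest of the 3 genes in every list, at the 11.7 and 11.1 fold percentiles in mutant and the 15.3 and 27.5 percentiles in wild type. Its −log10 q, 22.17 and 19.57 in mutant and 22.11 and 23.48 in wild type, placed it higher, at the 65.1 and 64.6 percentiles in mutant and the 68.1 and 74.0 percentiles in wild type.

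The other genes of the recombination pathway were open at an annotated end almost throughout. Of 20 listed genes, which include the 3 members, 19 had a peak within 1 kb of an end in 4 of 4 libraries, beside 67.1% of 21887 protein-coding genes. The exception was Paxx, which encodes an end-joining factor that binds the Ku complex. It was one of the 27.0% of protein-coding genes that had neither end called in any library, and its nearest peak was 1231 and 1253 bp from an end in mutant and 1304 and 1296 bp in wild type. The strand was known for 16 of the listed genes, and 14 of those had a peak within 1 kb of the start. Among the 14, ordered by the fold percentile at the start, Dntt was the lowest in 4 of 4 libraries. Rag2 was at place 3 from the lowest in both mutant libraries and place 2 in both wild-type libraries, and Rag1 was at place 6 and 6 in mutant and 5 and 6 in wild type. The median percentile of the 14 starts was 77.9 and 77.8 in mutant and 84.6 and 84.6 in wild type. The highest start was that of Nhej1, which encodes the end-joining factor XLF, at 96.6 and 96.9 in mutant and 96.3 in the second wild-type library, and in the first wild-type library it was that of Xrcc5, which encodes Ku80, at 96.1.

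**Figure D1:**
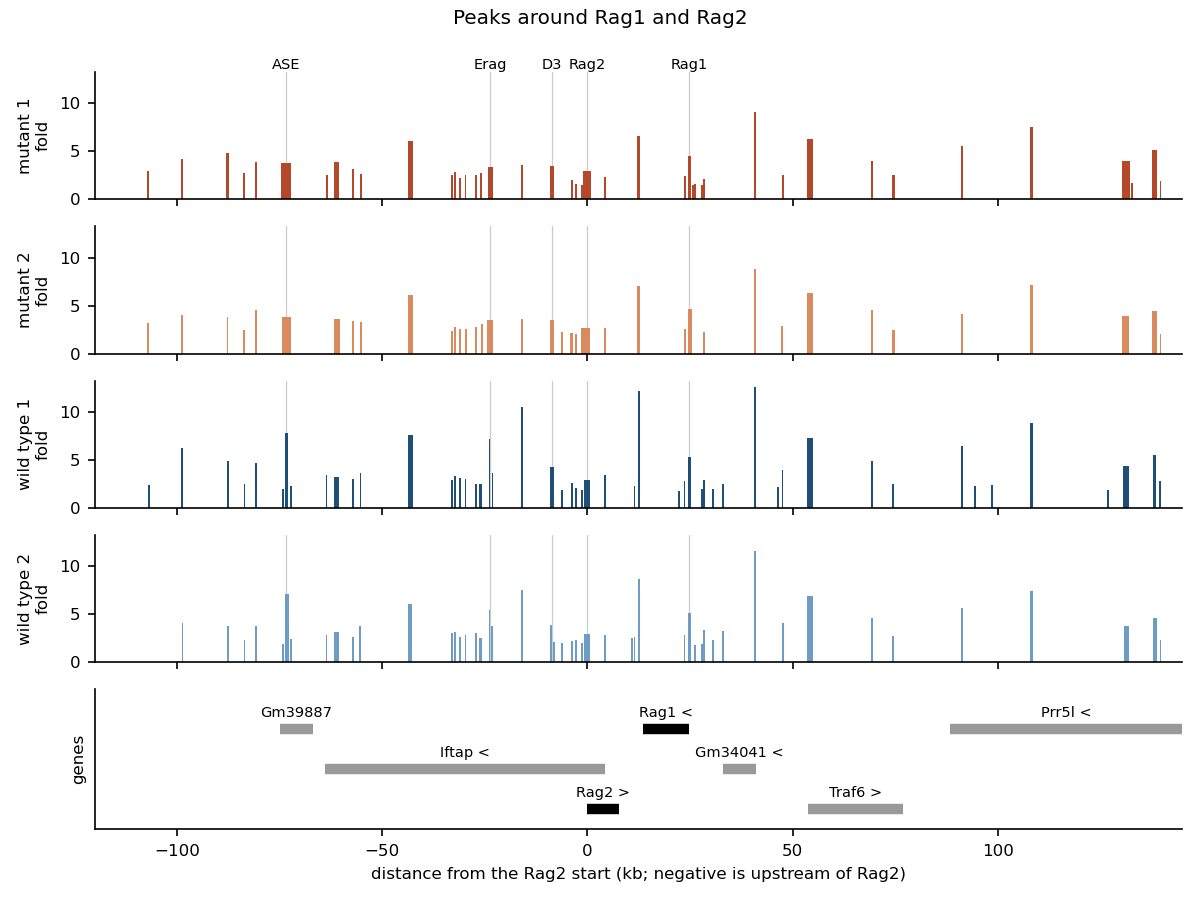
Called peaks across the Rag1-Rag2 locus in each library, mutant above wild type, with the distance from the Rag2 start in kb on the horizontal axis and the fold enrichment as bar height. Peaks narrower than 0.45 kb are drawn 0.45 kb wide, and the tallest peak in every library stands at the start of Gm34041, where the fold was 9.10 and 8.76 in mutant and 12.63 and 11.53 in wild type.

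The Rag1-Rag2 locus held 43 and 38 peaks in mutant libraries and 52 and 49 in wild-type libraries. The means were 40.5 ± 3.54 in mutant and 50.5 ± 2.12 in wild type (SD, n = 2 each), a difference of −10.0 peaks (exact two-sided permutation test, p = 0.333). The peaks covered 26829 and 24471 bp in mutant and 21411 and 21155 bp in wild type, with means of 25650 ± 1667 bp in mutant and 21283 ± 181 bp in wild type (SD, n = 2 each). That difference of 4367 bp also had p = 0.333 (exact permutation test), the smallest that 2 against 2 libraries allow. So neither measure overlapped between the genotypes, with fewer but wider peaks in mutant, and neither could pass a test. The whole lists also held fewer peaks in mutant, and how often other windows do not overlap was not counted. The median peak width at the locus was 475 and 433 bp in mutant and 302 and 316 bp in wild type, beside 444 and 421 bp in mutant and 284 and 302 bp in wild type over the whole lists. Restricting every list to peaks of fold 4 or more turned the difference in covered length to −1628 bp (p = 0.667, exact permutation test), and equal list lengths turned the difference in peak number to 3 (p = 0.667, exact permutation test). With −log10 q of 5 or more the difference in peak number was −1.50 (p = 1.00, exact permutation test).

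The Dntt locus held 34 and 30 peaks in mutant and 44 and 40 in wild type. The means were 32.0 ± 2.83 in mutant and 42.0 ± 2.83 in wild type (SD, n = 2 each), a difference of −10.0 (exact permutation test, p = 0.333). With equal list lengths the difference was −0.500 (31.5 in mutant and 32.0 in wild type, p = 1.00, exact permutation test), and with 1 minimum length and joining gap for all lists it was −5 (31.0 in mutant and 36.0 in wild type). The covered length was 22291 and 19455 bp in mutant and 19047 and 19712 bp in wild type, and the genotypes overlapped (difference 1494 bp, exact permutation test, p = 0.667). Without the first mutant library that difference was 75.5 bp, and without the second it was 2912 bp. With 1 minimum length and joining gap for all lists it was 150 bp (p = 1.00, exact permutation test), and with equal list lengths it was 3710 bp. With peaks of fold 4 or more it was −1714 bp (p = 0.333, exact permutation test).

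**Figure D2:**
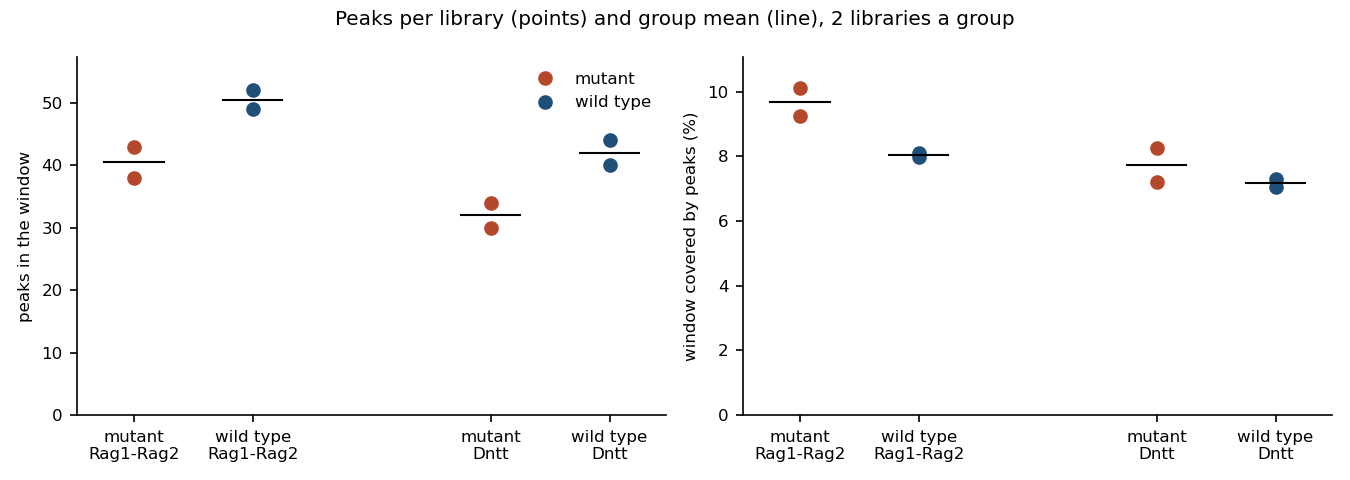
Number of called peaks (left) and percentage of the window covered by them (right) at each locus, with a point per library, mutant left of wild type, and a line at the group mean. Peak numbers do not overlap between genotypes at either locus, nor do they over the whole lists. The covered percentage overlaps at Dntt, at 8.25 and 7.20 in mutant and 7.05 and 7.29 in wild type.

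Both loci held more peaks than the median gene in every list. Rag1 with 120 kb on either side had 16.7 and 14.7 peaks per 100 kb in mutant and 20.3 and 19.5 in wild type, at the 91.6 and 84.5 percentiles of 21887 protein-coding genes in mutant and the 83.7 and 85.4 percentiles in wild type. For Rag2 the density was 15.7 and 14.1 in mutant and 19.8 and 18.6 in wild type. Dntt was nearer the median gene, with 12.6 and 11.1 peaks per 100 kb in mutant and 16.3 and 14.8 in wild type, at the 73.4 and 65.9 percentiles in mutant and the 67.1 and 66.8 percentiles in wild type. The median gene had 8.33 and 8.24 in mutant and 11.8 and 10.9 in wild type.

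Most regions of the Rag1-Rag2 locus were shared. Of the 51, 36 (70.6%) were called in 4 of 4 libraries, beside 56.7% of all regions. No region, of 37 in both mutant libraries, was called in both mutant and no wild-type library. That would allow a share of up to 8.11% if the regions were independent, which regions of 1 locus need not be. The share over all regions was 1.75%. The mirror case, wild type only, held for 3 of 42 regions (7.14%), beside 15.0% over the whole series. Another 7 regions were called in 1 library, of which 1 was in mutant and 6 were in wild type, and 5 had other patterns. Where a library was omitted, its group was called by the other library alone, and shares over all regions were not counted. The wild-type-only count was 8 without the second wild-type library and 5 without the first mutant library. Only in mutant, 2 regions were called without the second mutant library and 1 without the first wild-type library.

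The 3 wild-type-only regions lay around Rag1 and were weak. The first (chromosome 2, 101635944 to 101636152, 209 bp) lay outside genes, 2100 bp beyond the 3′ end of Rag1, and had a fold of 2.27 and 2.59. The second (101655100 to 101655166, 67 bp), 5568 bp upstream of Rag1, had a fold of 2.01 and 2.29, and its 67 bp are fewer than the shortest peak in either mutant list. The third (101657555 to 101657915, 361 bp) lay at the 3′ end of Gm34041, a long non-coding RNA gene, and had a fold of 2.48 and 3.21. With equal list lengths no region of the locus was called in wild type only and 3 were called in mutant only. The shares over all regions were not counted at equal list lengths.

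At the Dntt locus, 26 of 40 regions (65.0%) were called in 4 of 4 libraries, beside 56.7% of all regions. None of the 26 in both mutant libraries was called only in mutant, which would allow up to 11.5% if the regions were independent. Over all regions the share was 1.75%. Only in wild type, 2 of 33 (6.06%) were called, beside 15.0% over the whole series. Both regions at Dntt lay inside Blnk, the gene of the B-cell linker adaptor upstream of Dntt. One spanned 40958539 to 40958712 on chromosome 19 (174 bp) with a fold of 2.39 and 2.20, and the other spanned 40970347 to 40970718 (372 bp) with a fold of 2.68 and 2.84. Of the rest, 5 regions were called in 1 library, 2 in mutant and 3 in wild type, and 7 had other patterns. Counts with a library omitted again rest on the other library of its group alone. The wild-type-only count was 5 without the first mutant library and 4 without either the second mutant or the second wild-type library, and without the second mutant library 2 regions were called only in mutant.

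Distal elements were placed by their published distance from the Rag2 start, since no file marks them. The region nearest to 73 kb upstream, the distance of the antisilencer element, lay at chromosome 2, 101550207 to 101552632 inside the long non-coding RNA gene Gm39887, at −72.1 kb from the start at its near edge. Its fold was 3.82 and 3.81 in mutant and 7.81 and 7.14 in wild type, and its −log10 q was 77.31 and 53.99 in mutant and 145.02 and 107.79 in wild type. The fold percentiles were 62.5 and 58.8 in mutant and 91.8 and 91.0 in wild type. The merged region of 2426 bp held a single unbroken peak in both mutant libraries, of 2419 and 2318 bp. In each wild-type library the same stretch was called as 3 peaks, with gaps of 619 and 308 bp in the first and 511 and 262 bp in the second. The fold is a mean over a peak, so that of an unbroken peak takes in the stretches that the wild-type lists leave out. The wider gap in each exceeds 349 bp, the smallest gap left between peaks in the second mutant list. The part of averaging or of joining in these differences was not tested.

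The region nearest to 22 kb upstream, the distance of Erag, spanned 101600236 to 101601821 inside Iftap, at −22.9 kb from the Rag2 start. It too was unbroken in both mutant libraries and called as 2 peaks in both wild-type libraries, with gaps of 476 and 463 bp. Its fold was 3.36 and 3.53 in mutant and 7.12 and 5.38 in wild type, at the 53.4 and 53.1 percentiles in mutant and the 88.8 and 79.7 percentiles in wild type. The region nearest to 8 kb upstream, the distance of D3, spanned 101615504 to 101616613, at −8.10 kb from the start. There the fold was 3.51 and 3.54 in mutant and 4.26 and 3.91 in wild type. It stood at the 56.6 and 53.3 percentiles in mutant and the 65.0 and 62.2 percentiles in wild type. How often fold percentiles do not overlap over all shared regions was not counted. More peaks in each wild-type library than in either mutant library were found in 2 of the 36 shared regions of the locus (5.56%), the ones nearest to the antisilencer and Erag distances, beside 3.88% of all shared regions. The reverse was found in none of the 36, beside 0.0704%.

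Between Rag2 and Rag1, 676 bp beyond the 3′ end of Rag1, lay a 780 bp region (101636797 to 101637576) with a fold of 6.57 and 7.04 in mutant and 12.21 and 8.69 in wild type. It was high in every list, at the 91.7 and 92.9 percentiles in mutant and the 99.4 and 96.1 percentiles in wild type. Both wild-type libraries called exactly 101637136 to 101637482, while the mutant peaks began at 101636803 and 101636797, at least 333 bp further towards Rag2. A shift of that size on either side was found in 3 of the 36 shared regions (8.33%), beside 1.01% of all shared regions, and it was the measured value of this region that set the size. The others were the Rag1 start and a region in Traf6 (101698837 to 101699733, 383 bp). With the rule that peaks of a library cover at least 50% of a region, 5 regions of the locus were called only in mutant. They include the region between the genes and the one nearest to the Erag distance, both with peaks in every library. A merged region is as long as its outlines together, so narrow wild-type peaks can fail this rule. Between the genes they covered 347 of 780 bp. The share over all regions was not counted under this rule.

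**Figure D3:**
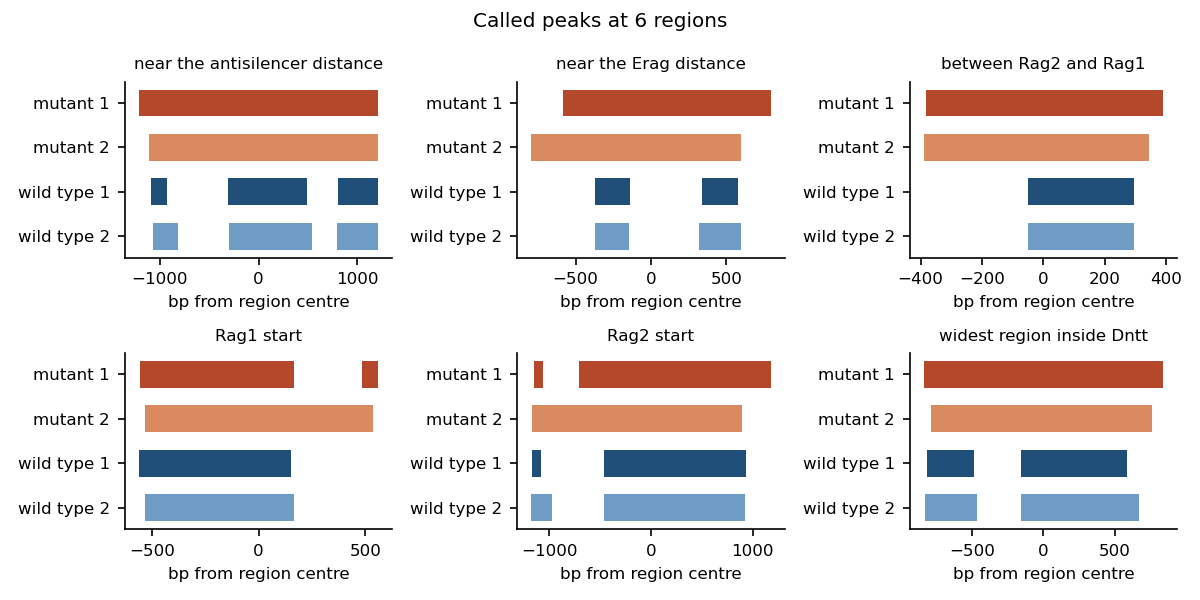
Called peaks at 6 regions in each library, mutant above wild type, in bp from the region's centre along the plus strand. The regions near the antisilencer and Erag distances are single bars in both mutant libraries, against 3 and 2 bars in the wild-type libraries, and the bars between Rag2 and Rag1 start at least 333 bp further left in mutant.

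Wider mutant outlines were common over the whole series. In 16 of 36 shared regions of the Rag1-Rag2 locus (44.4%) both mutant outlines were wider than either wild-type outline, beside 35.9% of all shared regions, and in 5 (13.9%) both were narrower, beside 21.2%. At Dntt both mutant outlines were wider in 7 of 26 (26.9%) and narrower in 5 (19.2%), and a shift of at least 333 bp was found in 1 (3.85%, beside 1.01% of all shared regions), at 41020748 to 41023413 upstream of Dntt. The wild-type libraries had more peaks in 3 of the 26 (11.5%, beside 3.88% of all shared regions). They were a region inside Dntt, one at the 3′ end of Opalin and one inside Tll2 (41088092 to 41089229). The longer joining gaps of the mutant lists move with these counts, and their part in them was not tested.

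The 6 regions of the Rag1-Rag2 locus with the highest fold in their weakest library all lay outside the bodies of Rag1 and Rag2. The strongest, at the start of Gm34041 (101665207 to 101665700) and at −15.7 kb from the Rag1 start, had 9.10 and 8.76 in mutant and 12.63 and 11.53 in wild type. Next came a region inside Prr5l, which encodes a partner of the mTORC2 kinase complex (101732444 to 101733322), with 7.48 and 7.18 in mutant and 8.88 and 7.45 in wild type. The region between Rag2 and Rag1 was the next in order. The start of Traf6, a ubiquitin ligase of receptor signalling (101678142 to 101679709), had 6.25 and 6.30 in mutant and 7.32 and 6.92 in wild type.

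A region inside Iftap, at −42.4 kb from the Rag2 start (101580939 to 101582272), had 6.07 and 6.13 in mutant and 7.57 and 6.02 in wild type, and another inside Prr5l (101762240 to 101763351) had 5.09 and 4.47 in mutant and 5.47 and 4.64 in wild type. The Rag1 start was at place 7 in this order. Iftap, whose body covers the stretch upstream of Rag2, held 17 of the 51 regions, of which 15 were called in 4 of 4 libraries, and shared 2 more with Rag2. A narrow region inside it, at −15.9 kb from the Rag2 start (101608524 to 101608851), was singled out after its values were seen. Its fold was 3.56 and 3.58 in mutant, at the 57.6 and 54.2 percentiles, and 10.51 and 7.53 in wild type, at the 98 and 92.6 percentiles. The genotypes did not overlap in place within the list, and how often that holds over all shared regions was not counted.

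At other gene ends of the locus, the start of Iftap inside Rag2 (101628654 to 101629160) had a fold of 2.27 and 2.65 in mutant and 3.45 and 2.83 in wild type. The 3′ end of Iftap (101560956 to 101561173) had 2.53 in the first mutant library, no peak in the second, and 3.40 and 2.80 in wild type. A region just inside Rag1 (101648125 to 101648671) had 2.44 and 2.60 in mutant and 2.78 and 2.87 in wild type.

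**Figure D4:**
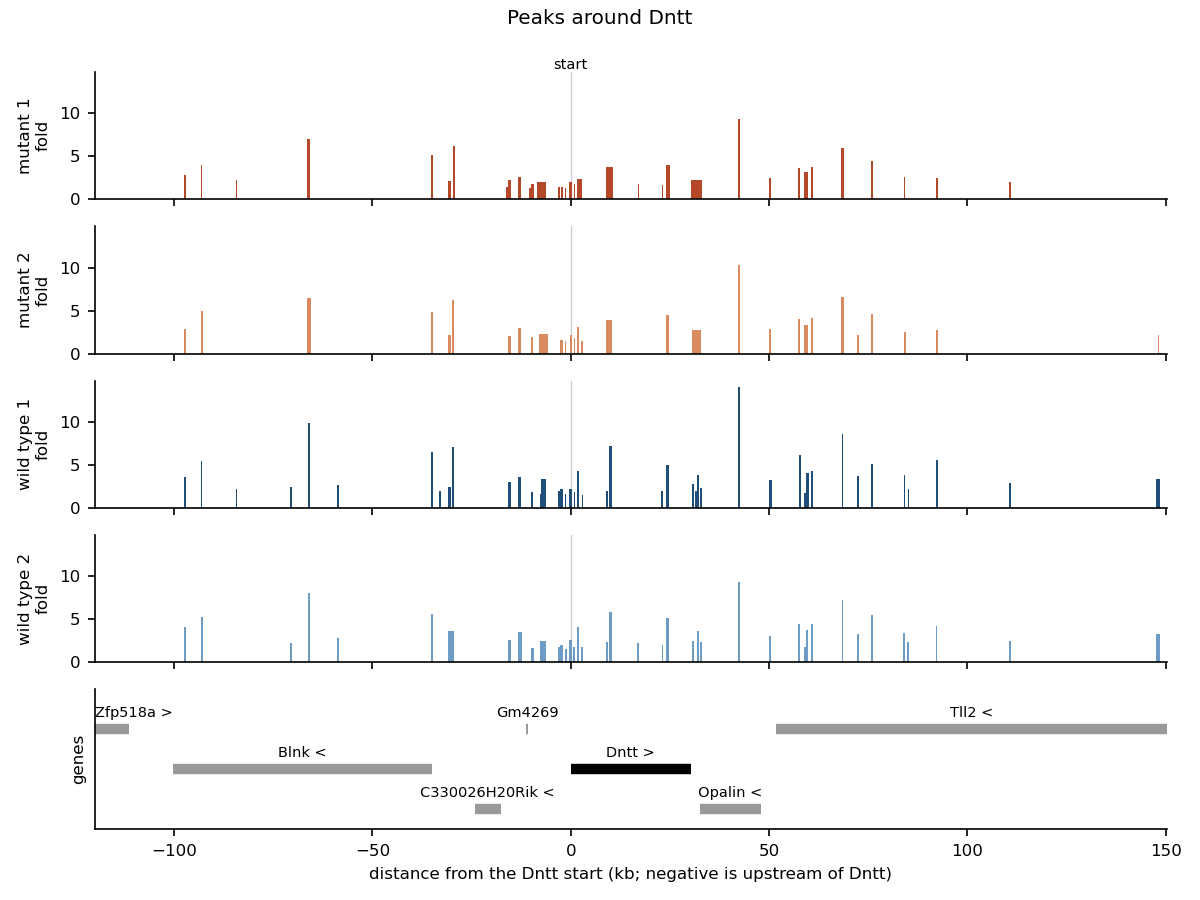
Called peaks across the Dntt locus in each library, mutant above wild type, with the distance from the Dntt start in kb on the horizontal axis and the fold enrichment as bar height. Peaks narrower than 0.45 kb are drawn 0.45 kb wide, and the peaks at the Dntt start are lower than the tallest one, inside Opalin, where the fold was 9.33 and 10.34 in mutant and 14.09 and 9.36 in wild type.

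The Dntt start lay in a long run of closely spaced regions, most of them low in fold. Joining merged regions that lie at most 1 kb apart gave a run at the Dntt start from 41026015 to 41032117, 6103 bp with 6 regions, of which 6 and 5 were called in mutant and 6 and 6 in wild type. Of 144991 such runs in the genome, 136 (0.0938%) were at least as long and 82 had at least as many regions. The run at the Rag1 start spanned 2624 bp with 3 regions, and 5789 runs (3.99%) were at least as long. Runs were examined after the Dntt values were seen. With a joining distance of 0.5 kb the run was 3247 bp, and 733 of 164358 runs were as long, and with 2 kb it was again 6103 bp, and 1670 of 120756 were as long.

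Within that run the authors' fold and −log10 q placed the regions differently. The median fold percentile was 3.16 and 3.25 in mutant and 9.01 and 4.35 in wild type, while the median −log10 q percentile was 44.6 and 46.7 in mutant and 62.6 and 54.2 in wild type. The −log10 q percentile was above the fold percentile for 6 of 6 and 5 of 5 regions in mutant and 6 of 6 and 6 of 6 in wild type. Among the other regions of both windows that was so for 30 of 68 and 23 of 61 in mutant and 26 of 78 and 30 of 73 in wild type. Their median fold percentiles were 41.4 and 48.9 in mutant and 51.3 and 51.6 in wild type, which leaves less room above. The order was not particular to the run. At 41020748 to 41023413, outside it, the fold percentiles were 12.2 and 14.0 in mutant and 51.3 and 25.4 in wild type. The −log10 q percentiles there were 71.0 and 72.2 in mutant and 88.1 and 72.8 in wild type. The region just inside Dntt (41029951 to 41030415) had a fold of 1.81 and 1.78 in mutant and 1.87 and 1.77 in wild type. The next (41030828 to 41032117) had 2.40 and 3.13 in mutant and 4.23 and 4.03 in wild type, with a −log10 q of 45.56 and 61.92 in mutant and 100.37 and 72.54 in wild type.

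**Figure D5:**
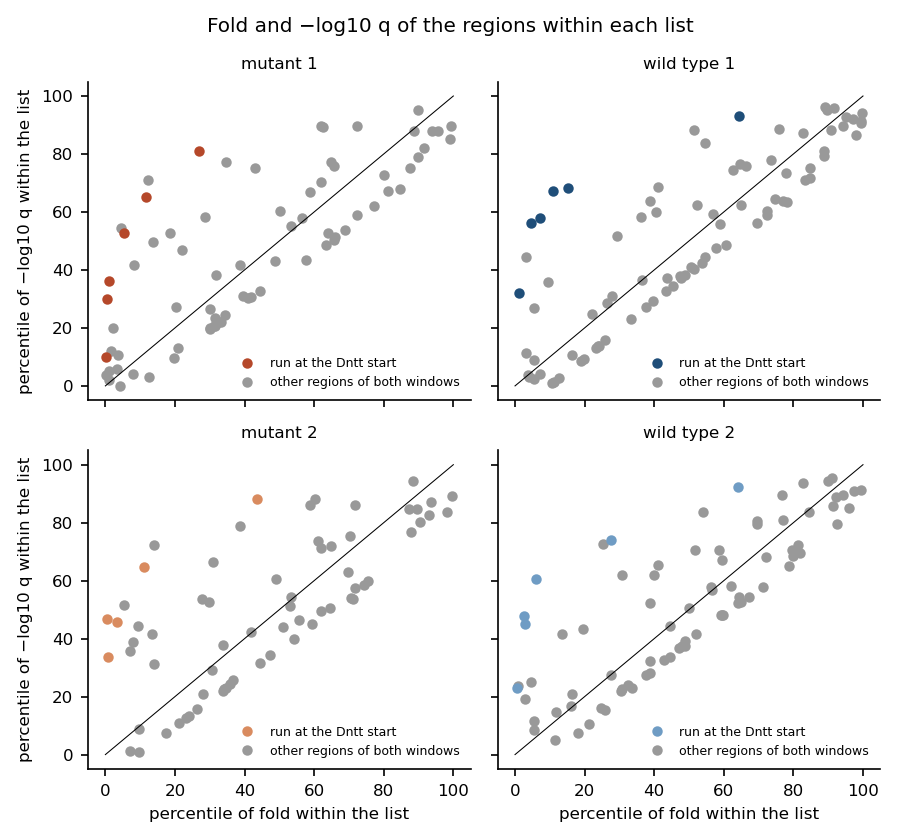
Percentile of each region's −log10 q against the percentile of its fold within its library's list, for the run at the Dntt start and the other regions of both windows, mutant left of wild type. Every point of the run lies above the diagonal, 6 and 5 in the mutant libraries and 6 and 6 in the wild-type libraries. The other regions lie on both sides of it.

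Further inside Dntt, the widest region (41038151 to 41039823, 1673 bp, 8.88 kb from the start) had a fold of 3.80 and 3.90 in mutant and 7.17 and 5.78 in wild type. It was 1 peak in both mutant libraries and 2 peaks in both wild-type libraries, with gaps of 331 and 308 bp, both above the smallest gap of the first mutant list and below that of the second. A region nearer the 3′ end (41053254 to 41054186) had 4.0 and 4.49 in mutant and 5.0 and 5.10 in wild type. The wide region from just past the 3′ end of Dntt into that of Opalin (41059693 to 41062482, 2790 bp) had 2.23 and 2.68 in mutant and 3.84 and 3.59 in wild type.

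Upstream, between Dntt and Blnk, a region chosen after its values were seen (40998307 to 40999907, 1601 bp, at −29.4 kb) was called as 2 peaks in 3 libraries, with a highest fold of 6.25 and 6.21 in mutant and 7.12 in the first wild-type library. In the second wild-type library the same stretch was 1 peak with a fold of 3.57.

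The 6 regions of the Dntt window with the highest fold in their weakest library all lay in neighbouring genes. The first, inside Opalin and 42.1 kb from the Dntt start (41071407 to 41071982), had a fold of 9.33 and 10.34 in mutant and 14.09 and 9.36 in wild type, and the genotypes overlapped. A region inside Blnk (40962778 to 40963736) had 7.0 and 6.45 in mutant and 9.83 and 8.02 in wild type, and the start of Blnk (40993963 to 40994491) had 5.19 and 4.79 in mutant and 6.44 and 5.58 in wild type. Both were called in every library, as were the Blnk region at 40935969 to 40936428, with 4.0 and 4.89 in mutant and 5.39 and 5.29 in wild type, and the pair inside Tll2. Of that pair, 41097455 to 41098029 had 5.94 and 6.61 in mutant and 8.60 and 7.21 in wild type, and 41104852 to 41105425 had 4.45 and 4.60 in mutant and 5.13 and 5.42 in wild type. Regions inside genes numbered 12 in Tll2, 7 in Dntt, 7 in Blnk and 2 in Opalin, and 12 lay outside genes. Beside the pseudogene Gm4269, 41019265 to 41020039 had 1.76 and 1.92 in mutant and 1.79 and 1.59 in wild type, and 41018786 to 41018889 had a fold of 1.30 in the first mutant library and no peak in the others.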

How the data were processed

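ATAC-seq peak lists of 4 DN3 libraries were used, 1 list per library with no pooling. The submitters' processing notes name MACS2 2.1.1, SAMtools 1.7, Bowtie2 2.3.3.1 and cutadapt 1.16, and the build mm10 (GRCm38). Settings, the filtering of reads and whether reads were shifted for the transposase were not given in the sources used here. The deposited score is 10 times the −log10 q, truncated, and was not analysed. Fold enrichment, as deposited, is the ratio of pileup to local background, averaged over a broad peak by the authors' caller. Within each library the authors' caller also gave −log10 p and −log10 q, and the lowest deposited −log10 q was 1.00 to 1.02. Fold, −log10 p and −log10 q served for description, and for ranking or filtering within a list. Folds were also compared across lists in the order by lowest fold, the overlap of genotypes and the correlation between replicates. For overlap at the Rag1 start, −log10 q was compared too.

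Autosomal (1 to 19), X and Y peaks were kept (0.112% to 0.131% left out) and merged across lists wherever they overlapped by 1 bp. A region counted as called in a library that had a peak in it. Genes came from RefSeq (GRCm38.p6), with no exon or untranslated region annotation, and the strand from its promoter table. Peak numbers and covered length per locus were compared with an exact two-sided permutation test. Members, lists, named elements and tests were chosen with earlier results of these data known. Regions given in full were those at starts and gene ends, the 6 with the highest lowest fold, those in 1 genotype only, and those nearest to 3 published distances. Of the recombination list, genes whose end was not called in 4 of 4 libraries were to be named, and the genes with the highest start were named after their values were seen. Alternatives were fold 4 or more, −log10 q 5 or more, equal list lengths, 50% coverage, common minimum length and joining gap, windows of 50 kb, gene ends within 2 kb, omission of each library and a replicate block. The code was tested on simulated lists. Python 3.11.15, numpy 2.4.6, pandas 2.3.3 and matplotlib 3.10.9 were used.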

Additional observations from a re-analysis of the deposited data

How the results depend on the processing

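Of 135 alternative values of 18 results, 3 changed direction, and only differences in peak number or covered length could. Counts have no direction, and 29 of their alternative values moved to or from 0 or by more than a set margin. Other differences kept their direction but not their size. For peak number it was −1.50 at Rag1-Rag2 with −log10 q of 5 or more and −0.500 at Dntt with equal list lengths, and for covered length at Dntt it was 150 bp with 1 minimum length and joining gap for all lists. Recombination genes with an end called numbered 14 with fold 4 or more. With fold 4 or more the difference in covered length, mutant minus wild type, was −1628 bp at Rag1-Rag2 and −1714 bp at Dntt, regions in 4 of 4 libraries numbered 9 and 7, and 4 Dntt regions were only in wild type. With equal list lengths the difference in peak number at Rag1-Rag2 was 3, 3 of its regions were only in mutant, and 0 regions at either locus were only in wild type. With −log10 q of 5 or more, Rag1-Rag2 had 22 regions in 4 of 4 libraries, 3 only in mutant and 1 only in wild type, and Dntt had 4 only in wild type. With 50% coverage, where narrow peaks in a wide region do not count, 5 regions at Rag1-Rag2 and 1 at Dntt were only in mutant. This rule was not applicable to peak number or covered length. Windows of 50 kb left 23 regions in 4 of 4 libraries at Rag1-Rag2 and 0 only in wild type at Dntt. Omitting 1 library in turn gave 4 to 8 regions only in wild type at Rag1-Rag2 and 3 to 5 at Dntt, and 0 to 2 only in mutant at each. The cause of these differences was not tested, and shares over all regions or genes were not counted at these settings. Omitting a library left its group to the other library alone. At fold 4 or more, the starts of Rag2 and Dntt had a peak in 0 libraries, the D3-distance region in 1 and the antisilencer- and Erag-distance regions in 2.

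The log2 fold difference of replicate 1 minus 2 had r = −0.07 between genotypes over 102231 regions. That value cannot settle whether libraries of equal replicate number belong together. With a replicate block the differences were −10.0 peaks and 4367 bp at Rag1-Rag2 and −10.0 peaks and 1494 bp at Dntt. The smallest possible p with that block is 0.5 (exact sign-flip test).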

Other observations

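At Rag1-Rag2 the nearest regions outside the window were 31.1 kb before it, called in 2 libraries, and 11.9 kb after it, called in 1. At Dntt they were 13.8 kb before it and 1.44 kb after it, each called in 4 of 4 libraries. At the Rag1-Rag2 locus, regions called in 4 of 4 libraries had a median width of 594 bp, and those called in 1 library had 91.0 bp, with folds of 1.7 to 2.46. At the Dntt locus, the median widths were 698 bp for regions in 4 of 4 libraries and 128 bp for those in 1 library, with folds of 1.30 to 2.39.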
